A study of Mus musculus with 9 samples.

Results

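Pancreatic islets of untreated db/db mice were compared with islets of untreated db/+ mice by RNA sequencing. The comparison was defined by genotype alone and takes 6 of the 9 samples of the study: 3 labelled db/+ and 3 labelled db/db, none of them treated. Db/db mice are homozygous for the db mutation of the leptin receptor gene, which makes them obese and diabetic, whereas db/+ mice are heterozygous, so both groups hold the mutant allele. The remaining 3 samples, from db/db mice that received imeglimin together with metformin, are not compared here. They entered the choice of a transcript for each gene, the filter on low counts, the scaling and the estimate of the spread between libraries. Neither the age and sex of the mice nor how many were pooled is stated in the labels. Whether replicates are separate mice is not stated either, and p-values therefore measure only the spread between these libraries, which may be technical.

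Islets are small organs of endocrine cells within the exocrine pancreas. Beta cells, the most numerous in the mouse, take up and oxidise glucose, close ATP-sensitive potassium channels, admit calcium and release insulin from dense-core granules, which also carry zinc, granins and the enzymes that cut prohormones. In db/db mice the beta cells face insulin resistance and later fail, and these mice are a standard model of type 2 diabetes. In bulk RNA a lower level of a gene cannot be told apart from fewer cells of the type that expresses it.

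Gene totals ranged from 10292668 to 15281813 counts over the 6 libraries. Of 16761 genes tested, 5242 (31.3%) rose and 5357 (32.0%) fell in untreated db/db islets at an adjusted p under 0.05, and 2428 and 2384 of these changed at least 2-fold. The groups did not overlap in 67.0% of genes tested, and 63.2% were called in either direction. All counts for gene lists below are to be read against these shares. The first principal component of the 6 libraries held 80.7% of the variance and separated the genotypes. On the second, with 7.5%, untreated db/db replicate 1 stood at -34 and the other db/db libraries at 26.9 and 8.7. That library also held the most transcripts of lymphocytes and of acinar cells, and results that rest on it are given without it. The groups also differed by base composition. Among the fifth of genes with the lowest GC content 44.6% were higher and 19.1% lower, and among the fifth with the highest 17.5% were higher and 48.9% lower, a trend seen in every library of each group. Where correcting each library for GC content ends a call or moves a count by over 1.5 times, that value stands beside it. Its part in the results was not otherwise tested.

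**Figure D1:**
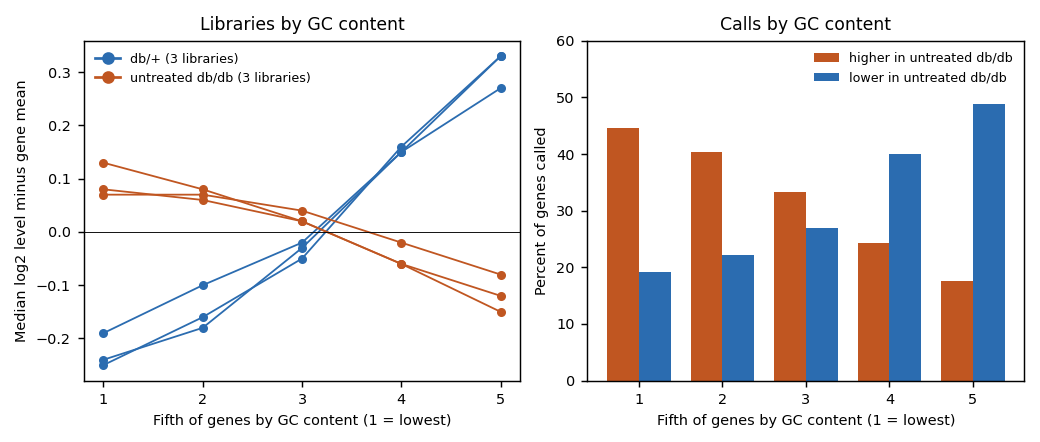
Left, the median of centred log2 levels (y axis) over genes in 5 equal classes of GC content (x axis, 1 is lowest) for each of the 6 libraries. Right, the percent of genes called higher or lower in each class. The db/+ libraries run from -0.25 to -0.19 in the lowest class and from 0.27 to 0.33 in the highest, and the untreated db/db libraries run the other way, from 0.07 to 0.13 down to -0.15 to -0.08.

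The 10 largest falls included ion channels, transcription factors and a muscle-type subunit of the respiratory chain. Only genes with groups apart could enter this set or that of the 10 largest rises. Kcnj12 lay at 29.4, 27.5 and 27.6 CPM in the db/+ libraries and at 0.365, 0.315 and 0.214 CPM in the untreated db/db libraries (log2 fold change -6.52 ± 0.33, adjusted p = 3.45e-08). Kcnj12 encodes an inwardly rectifying potassium channel. Trpm5 lay at 167, 162 and 116 CPM in the db/+ libraries and at 1.24, 2.02 and 4.63 CPM in the untreated db/db libraries (log2 fold change -5.82 ± 0.36, adjusted p = 3.28e-06). Trpm5 is a calcium-activated cation channel of taste cells and beta cells, and its highest db/db library stayed far below its lowest db/+ library. Cox6a2 lay at 238, 239 and 178 CPM in the db/+ libraries and at 1.61, 3.59 and 7.69 CPM in the untreated db/db libraries (log2 fold change -5.67 ± 0.52, adjusted p = 7.61e-05). Cox6a2 is the heart and muscle isoform of a cytochrome c oxidase subunit. Without untreated db/db replicate 3, the highest of its group for both, Trpm5 had -6.47, adjusted p = 3.11e-08 and Cox6a2 -6.35, adjusted p = 3.91e-05. Fam151a lay at 198, 179 and 149 CPM in the db/+ libraries and at 4.09, 3.91 and 7.12 CPM in the untreated db/db libraries (log2 fold change -5.12 ± 0.21, adjusted p = 3.27e-08). Ppp1r1a lay at 457, 371 and 363 CPM in the db/+ libraries and at 22.6, 25.6 and 28.2 CPM in the untreated db/db libraries (log2 fold change -3.96 ± 0.14, adjusted p = 4.02e-09). Ppp1r1a is an inhibitor of protein phosphatase 1 that is regulated by cAMP, and its db/db libraries lay close together. The transcription factors Mafa and Npas4, the imprinted gene Nnat, T2 and Oas1g, an interferon-induced antiviral gene, completed the set, with log2 fold changes of -4.67, -4.24, -4.08, -6.00 and -3.74. Oas1g belongs to a family of near-identical genes and is therefore uncertain.

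Of the 10 largest rises, the 9 described here took in a gut hormone, a milk protein, lymphocyte and lymph node genes and digestive enzymes. Cck lay at 0.594, 0.816 and 0.596 CPM in the db/+ libraries and at 289, 278 and 305 CPM in the untreated db/db libraries (log2 fold change 8.75 ± 0.18, adjusted p = 2.45e-11). Cck encodes the gut hormone cholecystokinin. Csn3 lay at 0.099, 0.102 and 0.0993 CPM in the db/+ libraries and at 41.1, 47.1 and 34.3 CPM in the untreated db/db libraries (adjusted p = 2.57e-06). Csn3 is kappa-casein of milk. Vstm2a lay at 0.099, 0 and 0 CPM in the db/+ libraries and at 24.4, 31.1 and 22.1 CPM in the untreated db/db libraries (adjusted p = 9.63e-09). These 3 genes were close to even across the db/db libraries, and the other 6 described were less so. Ms4a1 lay at 0, 0 and 0 CPM in the db/+ libraries and at 48.6, 4.35 and 1.78 CPM in the untreated db/db libraries (adjusted p = 0.0478). Pou2af1 lay at 0, 0.102 and 0 CPM in the db/+ libraries and at 37.4, 1.83 and 2.35 CPM in the untreated db/db libraries (adjusted p = 0.0176). Both are B cell genes, and untreated db/db replicate 1 held most of their counts. With that library left out they were still called, but Ms4a1 lost its call when any db/+ library or untreated db/db replicate 2 was left out (adjusted p from 0.0569 to 0.0815), and Pou2af1 lost it without any db/+ library (0.0548 to 0.0787). With limma voom in place of edgeR, Ms4a1, Pou2af1, Prss1 and Prss3 all missed the threshold (adjusted p from 0.0589 to 0.0982). Glycam1 and Ccl21a, made by high endothelial venules and stroma of lymph nodes, lay at 349.8, 382 and 150.2 and at 149, 85.3 and 56 CPM in the db/db libraries. In the db/+ libraries Glycam1 held 0, 0.102 and 0.298 CPM and Ccl21a was at 0 in every library. The trypsinogens Prss1 and Prss3 lay at 158, 8.88 and 53.2 and at 171, 12.9 and 102 CPM in the db/db libraries and at no more than 0.204 CPM in every db/+ library. Trypsinogen and Ccl21 genes have near-identical copies and are uncertain.

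**Figure D2:**
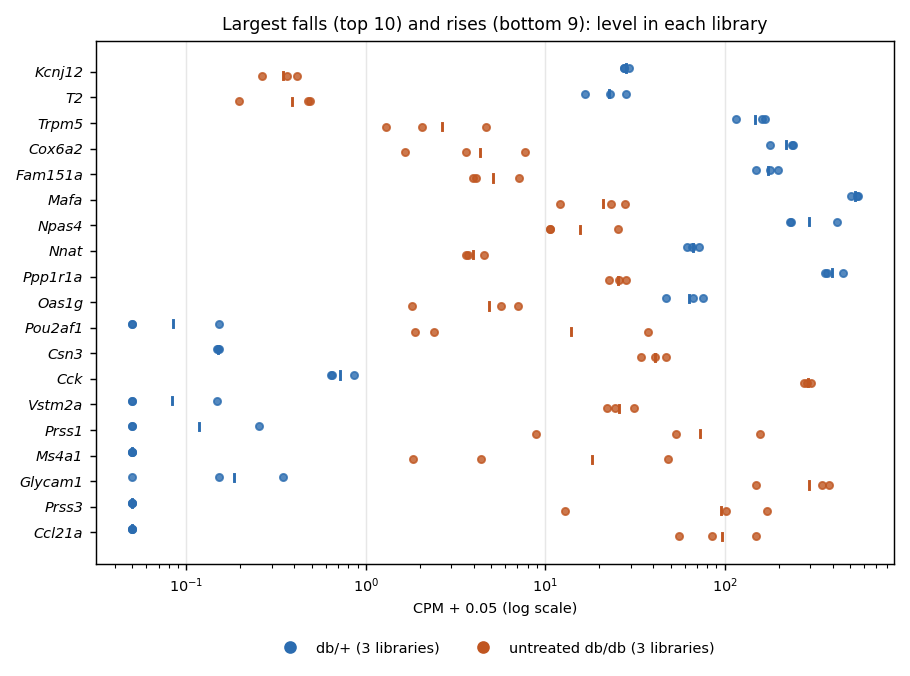
Level of the 10 genes with the largest falls and 9 of the 10 with the largest rises in untreated db/db islets. The x axis is CPM plus 0.05 on a log scale, each point is a library and each bar a group mean. All groups are apart, as the rule for choosing these genes required. Pou2af1 and Ms4a1 have 1 high db/db library and a pair of much lower ones.

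By absolute level, the falls were led by insulin and noncoding RNA and the rises by granule proteins. Ins1, one of the mouse insulin genes, went from 147949.9, 117984 and 88588 CPM in the db/+ libraries to 18539.9, 30544 and 48382 CPM (log2 fold change -1.86 ± 0.34, adjusted p = 0.000423). The groups were apart although each spread widely. Ins2 lay at 279306, 207265 and 147713 CPM in the db/+ libraries and at 103377, 155150.3 and 149321 CPM in the untreated db/db libraries (log2 fold change -0.64 ± 0.28, adjusted p = 0.0621). Ins2, the other insulin gene, was named after its value was seen; its groups overlapped, and it was called lower with DESeq2 (-0.61, adjusted p = 0.00446), with limma voom (-0.61, adjusted p = 0.0455), with transcripts added up (-0.57, adjusted p = 0.0476) and without db/+ replicate 3 (-0.80, adjusted p = 0.0133). The insulin genes are close copies, so how reads divide between them is uncertain. Meg3 lay at 3842, 6566 and 6530.4 CPM in the db/+ libraries and at 811, 832 and 778 CPM in the untreated db/db libraries (log2 fold change -2.81 ± 0.23, adjusted p = 7.74e-07). Meg3 is a maternally expressed noncoding RNA. mt-Rnr2 lay at 3836, 5247 and 7226 CPM in the db/+ libraries and at 1154, 855 and 1055 CPM in the untreated db/db libraries (log2 fold change -2.41 ± 0.24, adjusted p = 4.46e-06). This is the large ribosomal RNA of mitochondria. Lars2 lay at 2044, 2441 and 5301 CPM in the db/+ libraries and at 707, 539 and 761 CPM in the untreated db/db libraries (log2 fold change -2.29 ± 0.46, adjusted p = 0.00325). Lars2, mitochondrial leucyl-tRNA synthetase, may share reads with that ribosomal RNA and is uncertain. Hsp90aa1 lay at 1863, 1930.5 and 2165 CPM in the db/+ libraries and at 452, 509 and 538 CPM in the untreated db/db libraries (log2 fold change -1.99 ± 0.14, adjusted p = 2.17e-07). Hsp90aa1 is the inducible cytosolic HSP90 chaperone. Sst lay at 4357, 5281 and 6614 CPM in the db/+ libraries and at 2928, 3717 and 2636 CPM in the untreated db/db libraries (log2 fold change -0.81 ± 0.23, adjusted p = 0.0075). The call of Sst, somatostatin of delta cells, was lost without db/+ replicate 3 (adjusted p = 0.051) and with the GC correction (-0.47, adjusted p = 0.0899). On the other side, Iapp lay at 18997, 13012 and 9561 CPM in the db/+ libraries and at 30601, 39186 and 36409 CPM in the untreated db/db libraries (log2 fold change 1.35 ± 0.24, adjusted p = 0.000331). Iapp, islet amyloid polypeptide, is released together with insulin. Eef1a1 lay at 3394, 2609 and 2517 CPM in the db/+ libraries and at 5006, 5135 and 4742 CPM in the untreated db/db libraries (log2 fold change 0.81 ± 0.15, adjusted p = 0.000401). Eef1a1 is translation elongation factor 1 alpha. Cltrn lay at 249, 215 and 188 CPM in the db/+ libraries and at 1214, 1348 and 1157 CPM in the untreated db/db libraries (log2 fold change 2.51 ± 0.14, adjusted p = 5.03e-08). Cltrn, collectrin, is a membrane protein of kidney and beta cells. Ttr, transthyretin, rose by 1.10 on the log2 scale and was apart as well.

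Granule proteins and the enzymes that process prohormones rose together, against a fall of the granule zinc transporter. Of 20 genes tested on this list 14 rose and 3 fell, with a median log2 fold change of 0.67 against 0.02 for all genes. Scg2 lay at 2517, 1469 and 1281 CPM in the db/+ libraries and at 9679, 13074 and 13443 CPM in the untreated db/db libraries (log2 fold change 2.78 ± 0.25, adjusted p = 1.4e-06). Chgb lay at 999.98, 812 and 775 CPM in the db/+ libraries and at 4731, 4649.8 and 4695 CPM in the untreated db/db libraries (log2 fold change 2.44 ± 0.17, adjusted p = 2.64e-07). Both are granins, acidic proteins that help granules form, and the db/db libraries of Chgb lay very close together. Pam lay at 387, 336 and 331 CPM in the db/+ libraries and at 1086, 1303 and 1124 CPM in the untreated db/db libraries (log2 fold change 1.74 ± 0.12, adjusted p = 2.17e-07). Pam amidates peptide hormones, including amylin. Among further granins and their partners, Vgf, Scg5 and Scg3 had log2 fold changes of 1.55, 1.25 and 1.14. Among processing enzymes, Pcsk1, which cuts proinsulin, had 0.91, carboxypeptidase E (Cpe) 0.70, and Qpct, which cyclises N-terminal glutamine, 1.09. The granule phosphatases Ptprn2 and Ptprn rose by 1.66 and 0.40, the latter no longer called without untreated db/db replicate 2 (0.32, adjusted p = 0.0648). Chromogranin A (Chga) had 0.43 (adjusted p = 0.0848), but was called with the GC correction (0.83, adjusted p = 0.00369) and without db/+ replicate 1 (0.75, adjusted p = 0.00149). Pcsk2 had 0.29 (adjusted p = 0.0876) and was called when db/+ replicate 1 (0.46, adjusted p = 0.00668) or db/db replicate 1 (0.41, adjusted p = 0.0256) was left out. Both were also called with upper-quartile scaling, with DESeq2, without the filter on low counts and with transcripts added up (adjusted p from 0.00806 to 0.0403). The 3 that fell were Slc30a8, Prss53 and Pcsk1n. Slc30a8 lay at 735, 803 and 705 CPM in the db/+ libraries and at 86.6, 118 and 146 CPM in the untreated db/db libraries (log2 fold change -2.67 ± 0.18, adjusted p = 2.85e-07). Slc30a8 loads zinc into insulin granules. Prss53 lay at 815, 618 and 455.9 CPM in the db/+ libraries and at 133, 201 and 258 CPM in the untreated db/db libraries (log2 fold change -1.68 ± 0.28, adjusted p = 0.000745). Pcsk1n lay at 1339.8, 1235 and 1198 CPM in the db/+ libraries and at 595, 705 and 618 CPM in the untreated db/db libraries (log2 fold change -0.98 ± 0.12, adjusted p = 1.46e-05). Pcsk1n, also called proSAAS, is an inhibitor of the convertase Pcsk1, which rose. The groups did not overlap in any of the 6 genes given by library here.

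Zinc handling changed beyond the granule transporter. Of 22 zinc transporters and metallothioneins, 9 rose and 7 fell. Slc39a11 lay at 6.93, 8.16 and 9.33 CPM in the db/+ libraries and at 81.4, 89.7 and 83.4 CPM in the untreated db/db libraries (log2 fold change 3.38 ± 0.13, adjusted p = 9.63e-09). Slc30a4 lay at 33.6, 29.7 and 32.9 CPM in the db/+ libraries and at 85.2, 99.8 and 86.5 CPM in the untreated db/db libraries (log2 fold change 1.497 ± 0.11, adjusted p = 2.81e-07). Slc39a11 belongs to the ZIP family, which moves zinc into the cytosol, and Slc30a4 to the family that moves it out. Metallothioneins, which bind zinc, split. Mt2 lay at 2988, 2258 and 2220.3 CPM in the db/+ libraries and at 606, 656 and 614 CPM in the untreated db/db libraries (log2 fold change -1.99 ± 0.14, adjusted p = 2.09e-07). Mt1 lay at 3146, 2155 and 1996 CPM in the db/+ libraries and at 887, 1119 and 983 CPM in the untreated db/db libraries (log2 fold change -1.29 ± 0.17, adjusted p = 3.29e-05). Mt3 lay at 5.25, 5 and 5.16 CPM in the db/+ libraries and at 13.1, 16.8 and 19 CPM in the untreated db/db libraries (log2 fold change 1.66 ± 0.16, adjusted p = 2.74e-06). Mt1 and Mt2 thus fell and the much lower Mt3 rose, each without overlap. Metallothionein genes are close relatives, and reads can be shared between them.

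Peptide hormones outside the classical islet set were raised more often than lowered. Of 37 hormone and neuropeptide genes 17 rose and 10 fell, or 17 and 6 with the GC correction. Gast lay at 0.396, 0.612 and 0.298 CPM in the db/+ libraries and at 52, 48.2 and 44.5 CPM in the untreated db/db libraries (log2 fold change 6.77 ± 0.50, adjusted p = 8.16e-06). Gast encodes gastrin, a close relative of Cck, and fetal islets express it. Vip lay at 0, 0.102 and 0.894 CPM in the db/+ libraries and at 49.1, 5.1 and 6.76 CPM in the untreated db/db libraries (log2 fold change 5.88 ± 1.66, adjusted p = 0.0199). Vip, a neuropeptide, was highest in untreated db/db replicate 1, kept its call without that library (4.12, adjusted p = 0.0147) and lost it without db/+ replicate 1 (5.41, adjusted p = 0.0596) or 2 (5.50, adjusted p = 0.0594). Several further genes, chosen after their values were seen, rose as well: Stc2, a stanniocalcin, by 5.28, Cartpt by 3.50, the opioid precursors Penk and Pdyn by 3.19 and 3.15, galanin (Gal) by 2.59, Inhba, a subunit of activin A, by 2.77, and Nucb2, the precursor of nesfatin, by 2.15. Penk lay at 0.099, 0.204 and 0.496 CPM in the db/+ libraries and at 4.09, 1.51 and 1.99 CPM in the untreated db/db libraries, so each db/db library lay above each db/+ library. At the other end Apln lay at 11.7, 12.2 and 8.74 CPM in the db/+ libraries and at 1.97, 2.33 and 3.49 CPM in the untreated db/db libraries (log2 fold change -2.06 ± 0.27, adjusted p = 2.8e-05). Npy lay at 24.1, 32.5 and 18.1 CPM in the db/+ libraries and at 9.5, 1.32 and 1.28 CPM in the untreated db/db libraries (log2 fold change -2.64 ± 0.90, adjusted p = 0.0388). Apln encodes apelin, and Npy is neuropeptide Y, and untreated db/db replicate 1 held more of it than the other db/db libraries. Its call was lost when any library but that one was left out (adjusted p from 0.0652 to 0.0994), and without that library it was -4.24, adjusted p = 0.00278. Ucn3, urocortin 3 of mature beta cells, and Nmb, neuromedin B, both named after their values were seen, fell, with log2 fold changes of -1.64 and -1.80. Beside somatostatin, which is given above, these hormones of other endocrine cells did not pass: glucagon (Gcg) had 0.16 (adjusted p = 0.74), pancreatic polypeptide (Ppy) -0.40 (0.0908), ghrelin (Ghrl) -0.72 (0.243) and peptide YY (Pyy) 0.21 (0.442). Ppy was called without untreated db/db replicate 2 (-0.55, adjusted p = 0.0429) and Pyy with the GC correction (0.65, adjusted p = 0.0397).

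**Figure D3:**
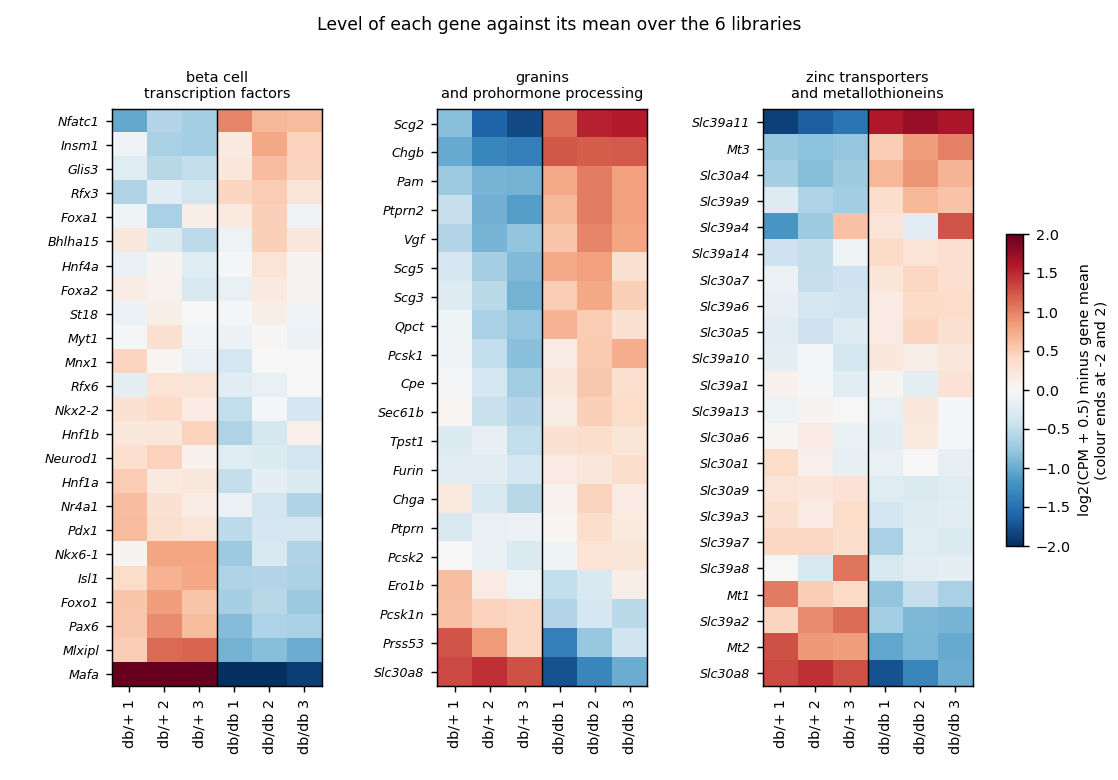
Level of each tested beta cell transcription factor, granin or processing gene, and zinc transporter or metallothionein in the 6 libraries, as log2(CPM + 0.5) minus the gene's mean over the libraries. Red is above and blue below that mean, with colours ending at -2 and 2, and genes are ordered by fold change. Most processing genes are red in all 3 db/db libraries, while Mafa, Slc30a8 and Mt2 are blue there.

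The transcription factors that hold beta cell identity fell more often than they rose. Of 24 tested 12 fell and 4 rose, with a median log2 fold change of -0.41; with the GC correction 9 fell and 7 rose. Mafa lay at 509, 545 and 555 CPM in the db/+ libraries and at 12, 23.1 and 27.8 CPM in the untreated db/db libraries (log2 fold change -4.67 ± 0.45, adjusted p = 7.61e-05). Mafa switches on insulin transcription in mature beta cells and fell most by far. Mlxipl lay at 635, 990.5 and 1004 CPM in the db/+ libraries and at 232, 249.9 and 226 CPM in the untreated db/db libraries (log2 fold change -1.89 ± 0.19, adjusted p = 6.05e-06). Mlxipl, or ChREBP, carries the glucose signal to metabolic genes. Pax6 lay at 570.4, 752 and 609 CPM in the db/+ libraries and at 213, 256 and 249.98 CPM in the untreated db/db libraries (log2 fold change -1.43 ± 0.12, adjusted p = 1.11e-06). Pax6 is required for all islet endocrine cells. In each of these the groups were apart. Foxo1, Isl1, Nkx6-1 and Pdx1 followed with log2 fold changes of -1.31, -1.24, -1.12 and -0.81, and Neurod1 and Nkx2-2 with -0.60 and -0.56. Nkx2-2 was no longer called with the GC correction (-0.03, adjusted p = 0.874) or with transcripts added up (-0.26, adjusted p = 0.11). Those that rose were Nfatc1, Insm1, Glis3 and Rfx3. Nfatc1 lay at 6.14, 8.46 and 7.94 CPM in the db/+ libraries and at 25.9, 20.8 and 20.3 CPM in the untreated db/db libraries (log2 fold change 1.57 ± 0.14, adjusted p = 1.57e-06). Nfatc1 answers calcium through calcineurin. Insm1 lay at 135, 92.4 and 89.5 CPM in the db/+ libraries and at 164, 247 and 199 CPM in the untreated db/db libraries (log2 fold change 0.94 ± 0.18, adjusted p = 0.000903). Insm1 drives endocrine differentiation. The 8 that did not pass, Foxa1, Foxa2, Hnf4a, Rfx6, Mnx1, Myt1, Bhlha15 and St18, had log2 fold changes from -0.25 to 0.62. With the GC correction Foxa2 (0.57, adjusted p = 0.00264), Hnf4a (0.51, adjusted p = 0.00218) and Rfx6 (-0.47, adjusted p = 0.00811) were called.

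Factors of progenitors and of other islet lineages were called less often than all genes. Of 27 tested 8 rose and 5 fell, or 3 fell without db/+ replicate 1 and 3 with the GC correction. Neurog3 lay at 1.68, 2.75 and 3.67 CPM in the db/+ libraries and at 19.8, 21.7 and 14.2 CPM in the untreated db/db libraries (log2 fold change 2.78 ± 0.34, adjusted p = 6.93e-05). Neurog3 marks endocrine progenitors of the fetal pancreas, and its lowest db/db library was above its highest db/+ library. Id2 lay at 13.2, 9.89 and 13.6 CPM in the db/+ libraries and at 47.7, 48.7 and 36.9 CPM in the untreated db/db libraries (log2 fold change 1.86 ± 0.20, adjusted p = 1.15e-05). Id2 rose and Id1 and Id3 fell, with log2 fold changes of -0.87 and -0.52. These 3 are inhibitors of helix-loop-helix factors, and the call of Id3 was lost without db/+ replicate 1 (-0.30, adjusted p = 0.103) and with the GC correction (-0.20, adjusted p = 0.247). The delta cell factor Hhex did not pass, with -0.27 (adjusted p = 0.468).

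Of 36 genes of glucose uptake, glycolysis and pyruvate entry 11 rose and 8 fell, fewer in all than the share over all genes, and single enzymes are described. Hk3 lay at 9.996, 10.1 and 9.53 CPM in the db/+ libraries and at 3, 1.89 and 2.42 CPM in the untreated db/db libraries (log2 fold change -2.02 ± 0.28, adjusted p = 4.06e-05). Eno2 lay at 280.0, 282 and 289 CPM in the db/+ libraries and at 81.6, 91.4 and 92.8 CPM in the untreated db/db libraries (log2 fold change -1.68 ± 0.14, adjusted p = 7.84e-07). Hk3 is a hexokinase and Eno2 the neuronal and endocrine enolase. In the other direction Pdk1 lay at 14.4, 13.8 and 14.3 CPM in the db/+ libraries and at 42.7, 51.9 and 49.2 CPM in the untreated db/db libraries (log2 fold change 1.76 ± 0.12, adjusted p = 1.74e-07). Pdk1 restrains the entry of pyruvate into the citric acid cycle. Pgam1, the liver-type pyruvate kinase Pklr and Pgk1 rose by 1.39, 1.20 and 0.95, and the lactate dehydrogenase subunit Ldhb fell by 1.42 on the log2 scale. These 4 were chosen after their values were seen.

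In the mitochondrion, an enzyme that refills the citric acid cycle fell, while genes in and around the cycle moved in both directions. Of 33 genes 13 rose and 8 fell. Without db/+ replicate 1, 22 rose and 7 fell. Pcx lay at 103, 116 and 121 CPM in the db/+ libraries and at 27.8, 30.5 and 34.5 CPM in the untreated db/db libraries (log2 fold change -1.88 ± 0.11, adjusted p = 7.03e-08). Pcx, pyruvate carboxylase, makes oxaloacetate. Idh2 lay at 244, 272 and 284 CPM in the db/+ libraries and at 90.2, 112 and 93.8 CPM in the untreated db/db libraries (log2 fold change -1.43 ± 0.13, adjusted p = 1.16e-06). Idh2 makes NADPH in mitochondria. Me3 lay at 1.88, 2.04 and 1.69 CPM in the db/+ libraries and at 5.34, 7.12 and 8.47 CPM in the untreated db/db libraries (log2 fold change 1.896 ± 0.22, adjusted p = 1.2e-05). Suclg2 lay at 22.8, 21.2 and 21.2 CPM in the db/+ libraries and at 42.2, 44.5 and 43.3 CPM in the untreated db/db libraries (log2 fold change 0.996 ± 0.10, adjusted p = 2.79e-06). Pdha1 lay at 55.5, 38.7 and 41.1 CPM in the db/+ libraries and at 82.5, 88.5 and 85.4 CPM in the untreated db/db libraries (log2 fold change 0.92 ± 0.12, adjusted p = 2.8e-05). Me3 is a mitochondrial malic enzyme, Suclg2 a subunit of succinate-CoA ligase and Pdha1 the catalytic subunit of pyruvate dehydrogenase. Groups of all 5 were apart.

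Of 61 potassium channel genes 21 rose and 16 fell, so as a list they were called no more often than all genes, and single channels are described. Beside Kcnj12, the voltage-gated channel Kcnd1 fell. Kcnd1 lay at 14.6, 15.8 and 19.5 CPM in the db/+ libraries and at 4.75, 5.36 and 5.2 CPM in the untreated db/db libraries (log2 fold change -1.70 ± 0.18, adjusted p = 5.11e-06). The channel most raised was Kcns3, a silent subunit that alters Kv2 channels. Kcns3 lay at 0.198, 0.306 and 0.397 CPM in the db/+ libraries and at 7.75, 8.76 and 7.54 CPM in the untreated db/db libraries (log2 fold change 4.70 ± 0.29, adjusted p = 1.19e-07). Kcnb2, a Kv2 channel, and the background channel Kcnk6, both named after their values were seen, rose by 1.33 and 2.25. Of the ATP-sensitive channel, the sulfonylurea receptor Abcc8 fell by 0.83 on the log2 scale, and the pore Kcnj11 had -0.45 (adjusted p = 0.0038), a call that was lost with the GC correction (0.02, adjusted p = 0.899). These too were named after their values were seen.

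Of 28 calcium and sodium channel genes tested 9 rose and 9 fell, close to the shares over all genes, and 5 fell with upper-quartile scaling or without the filter on low counts. Cacng4 lay at 24, 31.2 and 18.6 CPM in the db/+ libraries and at 4.17, 4.79 and 2.35 CPM in the untreated db/db libraries (log2 fold change -2.70 ± 0.28, adjusted p = 7.69e-06). Cacna1a lay at 97.6, 122 and 127 CPM in the db/+ libraries and at 35.4, 41.2 and 38.1 CPM in the untreated db/db libraries (log2 fold change -1.59 ± 0.11, adjusted p = 2.42e-07). Cacna1a is the pore of P/Q-type calcium channels, and Cacna1d, an L-type pore of beta cells named after its value was seen, fell by 0.71 on the log2 scale. Among the rises the sodium channel genes Scn3b, Scn3a and Scn9a, chosen after their values were seen, had 1.85, 1.65 and 1.30. Of 22 TRP and related cation channels 8 fell and 4 rose. Without untreated db/db replicate 3, 2 rose. Besides Trpm5, its relative Trpm4 and the lysosomal channel Mcoln3 fell, with log2 fold changes of -1.52 and -4.37. With transcripts added up Mcoln3 had -3.60, adjusted p = 0.000144. Trpc4 lay at 4.16, 4.79 and 2.78 CPM in the db/+ libraries and at 16.7, 22.2 and 19 CPM in the untreated db/db libraries (log2 fold change 2.30 ± 0.20, adjusted p = 1.23e-06). The sensory channels Trpa1 and Trpv4 had 0.25 and 0.33 (adjusted p = 0.62 and 0.431).

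Receptors for incretins, adenosine and growth factors moved in different directions. Of 41 receptors 18 rose and 9 fell. Gipr lay at 189.8, 257 and 270.3 CPM in the db/+ libraries and at 29.8, 32.6 and 28.8 CPM in the untreated db/db libraries (log2 fold change -2.97 ± 0.13, adjusted p = 1.6e-08). Gipr is the receptor of the incretin GIP, and its groups were far apart. Adora1 lay at 80.3, 104 and 72.7 CPM in the db/+ libraries and at 12.2, 14.6 and 20.5 CPM in the untreated db/db libraries (log2 fold change -2.44 ± 0.19, adjusted p = 1.8e-06). Crhr1 lay at 3.46, 2.96 and 3.77 CPM in the db/+ libraries and at 0.292, 0.189 and 0.0712 CPM in the untreated db/db libraries (log2 fold change -4.14 ± 0.49, adjusted p = 1.21e-05). Adora1 is an inhibitory adenosine receptor and Crhr1 a corticotropin-releasing factor receptor. Several more were chosen after their values were seen. The glucagon receptor Gcgr and the IGF-1 receptor Igf1r fell, with log2 fold changes of -1.93 and -1.37. The GLP-1 receptor Glp1r and the lipid receptors Ffar1 and Gpr119 had 1.08, 1.42 and 0.996, and the somatostatin receptor Sstr5 1.76. Glp1r lay at 78.5, 50.9 and 77.1 CPM in the db/+ libraries and at 120.4, 142 and 176 CPM in the untreated db/db libraries, so the receptors of the incretins GIP and GLP-1 moved in opposite directions without overlap.

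Downstream of these receptors more cAMP genes rose than fell. Of 47 tested 20 rose and 10 fell. Gnaz lay at 193, 188 and 191 CPM in the db/+ libraries and at 68.1, 79.4 and 74.5 CPM in the untreated db/db libraries (log2 fold change -1.36 ± 0.09, adjusted p = 1.99e-07). Gnaz encodes an inhibitory G protein of the Gi family. Pde4a lay at 11.5, 17.2 and 13.4 CPM in the db/+ libraries and at 5.92, 5.17 and 5.27 CPM in the untreated db/db libraries (log2 fold change -1.36 ± 0.22, adjusted p = 0.00017). Pde4a degrades cAMP. The adenylyl cyclases Adcy1 and Adcy2, both named after their values were seen, had log2 fold changes of 2.55 and 2.40. Adcy1 lay at 0.297, 0.917 and 0.894 CPM in the db/+ libraries and at 3.44, 4.16 and 4.84 CPM in the untreated db/db libraries. Gnas, the stimulatory G protein, and the catalytic subunits Prkacb and Prkaca of protein kinase A, likewise named, had 0.59, 1.34 and 0.88, while the exchange factor Rapgef4, or Epac2, had -0.77.

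The machinery that docks and fuses granules held changes in both directions. Of 42 genes 16 fell and 11 rose, shares near those of all genes, with a median log2 fold change of -0.15. Sytl4 lay at 278, 269.6 and 249 CPM in the db/+ libraries and at 35.6, 50.3 and 63.4 CPM in the untreated db/db libraries (log2 fold change -2.42 ± 0.18, adjusted p = 1.03e-06). Sytl4, granuphilin, docks insulin granules at the membrane. Rims3 lay at 194, 175 and 141 CPM in the db/+ libraries and at 37.9, 56 and 48.8 CPM in the untreated db/db libraries (log2 fold change -1.83 ± 0.16, adjusted p = 1.96e-06). Stx4a lay at 76.3, 103 and 111 CPM in the db/+ libraries and at 30.8, 28.4 and 30.7 CPM in the untreated db/db libraries (log2 fold change -1.69 ± 0.12, adjusted p = 3.43e-07). Rims3 belongs to the family of active zone organisers, Stx4a is a target-membrane SNARE, and neither overlapped. The SNAREs Stx1a and Stx3 and the priming factor Unc13a, chosen after their values were seen, fell, with log2 fold changes of -1.003, -1.48 and -1.31. On the other side were the small GTPases Rab27b and Rab3b and the granule protein Cadps2. Rab27b lay at 0.594, 1.33 and 0.894 CPM in the db/+ libraries and at 9.87, 9.7 and 6.76 CPM in the untreated db/db libraries (log2 fold change 3.22 ± 0.29, adjusted p = 1.27e-06). Cadps2 lay at 4.85, 5.1 and 4.07 CPM in the db/+ libraries and at 17.5, 18.6 and 20.4 CPM in the untreated db/db libraries (log2 fold change 2.01 ± 0.13, adjusted p = 1.74e-07). Rab3b lay at 31, 23.7 and 25.7 CPM in the db/+ libraries and at 84.5, 104 and 80.4 CPM in the untreated db/db libraries (log2 fold change 1.75 ± 0.13, adjusted p = 3.3e-07). In these 3 every db/db library lay above every db/+ library.

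Interferon-stimulated genes were the list that fell most widely. Interferons signal through JAK kinases to transcription factors that bind a short element in the promoters of antiviral genes. The element was searched as GAAA, any 2 bases and GAAA on both strands in RefSeq promoters of build GRCm38.p6, from 250 bases before to 50 after each start. Of 37 genes tested, 26 had a promoter there and 17 (65.4%) held the element, against 3.99% of 27025 genes and 3.44% of 32851 promoters. The promoters of Ifit1 (chr19:34640639-34640938, plus strand) and Rsad2 (chr12:26456403-26456702, minus strand) are shown 5′ to 3′ because these genes are among those that fell, with the element in capitals.
Ifit1: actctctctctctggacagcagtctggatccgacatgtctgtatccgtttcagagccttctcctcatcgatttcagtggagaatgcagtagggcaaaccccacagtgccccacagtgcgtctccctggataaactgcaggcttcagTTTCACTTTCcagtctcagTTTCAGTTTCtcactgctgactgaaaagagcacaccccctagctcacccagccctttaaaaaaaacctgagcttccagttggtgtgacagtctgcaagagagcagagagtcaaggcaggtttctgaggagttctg
Rsad2: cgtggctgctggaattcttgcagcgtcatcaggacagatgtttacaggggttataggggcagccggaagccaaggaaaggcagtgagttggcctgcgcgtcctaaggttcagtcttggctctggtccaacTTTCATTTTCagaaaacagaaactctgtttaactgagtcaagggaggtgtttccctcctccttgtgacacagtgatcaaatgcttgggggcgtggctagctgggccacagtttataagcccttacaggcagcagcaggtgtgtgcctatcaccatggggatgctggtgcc
Not all genes with the element were called lower, and members with it were called lower no more often than the list as a whole. Cxcl10, Isg15, Irgm1, Gbp2 and Oas3, named after their values were seen, held it and were not called in the edgeR fit. Their log2 fold changes were -2.37, -1.54, -1.09, -0.96 and -0.39. A match is a description of these letters, and binding was not measured.

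The interferon genes were even across db/+ islets and lower in db/db islets. Of the 37 tested 29 fell and 0 rose at an adjusted p under 0.05, with a median log2 fold change of -1.81. By edgeR at an unadjusted p under 0.05 it was 31 lower and 0 higher, and over the alternatives from 23, without the filter on low counts or without db/+ replicate 1, to 35, with limma voom, were lower and 0 higher. Ifit1 lay at 975.4, 1014 and 840.1 CPM in the db/+ libraries and at 143, 58.8 and 145 CPM in the untreated db/db libraries (log2 fold change -3.03 ± 0.71, adjusted p = 0.0089). Ifit1 binds viral RNA that lacks a host cap. Irf7 lay at 313, 388 and 379.7 CPM in the db/+ libraries and at 71.9, 25.9 and 44.2 CPM in the untreated db/db libraries (log2 fold change -2.93 ± 0.66, adjusted p = 0.0078). Irf7 amplifies interferon production. Dhx58 lay at 94.9, 115 and 119 CPM in the db/+ libraries and at 21.5, 8.25 and 15.9 CPM in the untreated db/db libraries (log2 fold change -2.85 ± 0.63, adjusted p = 0.00711). In all 3, untreated db/db replicate 2 was lowest and the groups were apart. Stat2, Mx2, Rsad2 and Eif2ak2, the RNA-sensing kinase PKR, were chosen after their values were seen and also fell, with log2 fold changes of -2.51, -2.81, -2.62 and -1.97. The list's mean log2 level was 7.29, 7.41 and 7.35 across db/+ islets and 5.88, 4.66 and 5.65 across db/db islets, without overlap. Isg15 had -1.54 (adjusted p = 0.141) and Cxcl10 -2.37 (0.0683). Fitted on the 6 untreated libraries alone, both were called (-1.52, adjusted p = 0.0409; -2.35, adjusted p = 0.00875).

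Class I antigen presentation fell alongside. Of 24 genes 13 fell and 2 rose. H2-K1 lay at 638, 707 and 761 CPM in the db/+ libraries and at 244, 181 and 213 CPM in the untreated db/db libraries (log2 fold change -1.72 ± 0.14, adjusted p = 6.7e-07). H2-K1 presents peptides to CD8 T cells. Psmb8 lay at 151, 150.4 and 151 CPM in the db/+ libraries and at 59.2, 29.2 and 46.7 CPM in the untreated db/db libraries (log2 fold change -1.74 ± 0.27, adjusted p = 0.000571). Tap1 lay at 163, 179 and 182 CPM in the db/+ libraries and at 70.5, 34.4 and 59 CPM in the untreated db/db libraries (log2 fold change -1.68 ± 0.30, adjusted p = 0.00163). Psmb8 is an immunoproteasome subunit and Tap1 carries peptides into the endoplasmic reticulum. Groups did not overlap in these. The class II genes H2-Aa, H2-Ab1, H2-Eb1 and Cd74 had 0.77, 0.90, 0.48 and 0.27 (adjusted p from 0.221 to 0.708). All 4 were highest in untreated db/db replicate 1, which also held the most B cell transcripts, and without it Cd74 was lower (-0.70, adjusted p = 0.0239). MHC genes have near-identical copies, and their counts are uncertain.

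Most genes of protein folding in the endoplasmic reticulum rose, and the stress sensors Ern1, Eif2ak3 and Atf6 rose with them (1.62, 0.93 and 0.75). Proinsulin is the main client of this compartment in beta cells, and unfolded protein acts through these sensors. Eif2ak3 and Atf6 were named after their values were seen. The endoplasmic reticulum stress element, searched as CCAAT, any 9 bases and CCACG on both strands, was found in 10 of 34 list members with a promoter (29.4%), against 0.137% of 27025 genes and 0.119% of 32851 promoters. Promoters of Hspa5 (chr2:34771840-34772139, plus strand), Pdia6 (chr12:17266339-17266638, plus strand) and Dnajc3 (chr14:118937682-118937981, plus strand) are shown 5′ to 3′ from RefSeq, with the element in capitals, because these 3 are members that rose.
Hspa5: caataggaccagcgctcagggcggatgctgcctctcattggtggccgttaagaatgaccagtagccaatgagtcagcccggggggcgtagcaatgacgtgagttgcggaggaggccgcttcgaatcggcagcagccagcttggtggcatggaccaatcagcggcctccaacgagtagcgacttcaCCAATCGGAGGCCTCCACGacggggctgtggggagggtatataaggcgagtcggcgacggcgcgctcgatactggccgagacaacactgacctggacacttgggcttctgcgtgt
Pdia6: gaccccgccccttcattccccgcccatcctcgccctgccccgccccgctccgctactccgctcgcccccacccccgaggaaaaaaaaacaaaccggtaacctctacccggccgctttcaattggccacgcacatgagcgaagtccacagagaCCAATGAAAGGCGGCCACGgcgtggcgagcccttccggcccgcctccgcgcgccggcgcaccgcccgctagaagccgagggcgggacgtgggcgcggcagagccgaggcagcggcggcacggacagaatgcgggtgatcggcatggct
Dnajc3: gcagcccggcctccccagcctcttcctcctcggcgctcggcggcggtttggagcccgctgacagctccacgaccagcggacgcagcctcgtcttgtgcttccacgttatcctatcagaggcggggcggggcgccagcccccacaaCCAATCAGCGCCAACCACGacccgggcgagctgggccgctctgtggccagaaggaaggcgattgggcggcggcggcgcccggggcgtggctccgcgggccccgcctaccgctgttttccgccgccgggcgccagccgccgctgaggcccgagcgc
Not all genes with the element rose, and members with it were called higher no more often than the list as a whole. Calr had -0.38 (adjusted p = 0.0295), a call lost without db/+ replicate 1 (-0.18, adjusted p = 0.182) or 2 (-0.36, adjusted p = 0.0642) and without untreated db/db replicate 1 (-0.29, adjusted p = 0.104) or 2 (-0.35, adjusted p = 0.0811). Creld2, Syvn1 and Ero1b, like Calr and Pdia6 named after their values were seen, had 0.12, -0.18 and -0.45 (adjusted p = 0.572, 0.0982 and 0.0646).

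Of 40 genes on the list 25 rose and 6 fell, with a median log2 fold change of 0.61. Without db/+ replicate 1, with upper-quartile scaling or without the filter on low counts 3 fell. Ssr3 lay at 210.4, 141 and 139.6 CPM in the db/+ libraries and at 508, 586 and 565 CPM in the untreated db/db libraries (log2 fold change 1.75 ± 0.15, adjusted p = 9.88e-07). Ssr3 is part of the translocon-associated complex through which proinsulin enters. Ern1 lay at 125, 91.3 and 89.3 CPM in the db/+ libraries and at 272, 358 and 308 CPM in the untreated db/db libraries (log2 fold change 1.62 ± 0.16, adjusted p = 2.91e-06). Dnajc3 lay at 257, 203 and 159 CPM in the db/+ libraries and at 543, 634 and 582 CPM in the untreated db/db libraries (log2 fold change 1.51 ± 0.15, adjusted p = 3.56e-06). Dnajc3 is a co-chaperone of BiP that restrains the kinase Eif2ak3. The groups of these 3 were apart. Hspa5, BiP itself, lay at 2555, 1849 and 1577 CPM in the db/+ and 2812, 2472 and 3572 CPM in the db/db libraries (log2 fold change 0.57 ± 0.20, adjusted p = 0.0226). It missed the threshold when db/+ replicate 2 was left out (0.53, adjusted p = 0.0744), likewise replicate 3 (0.46, adjusted p = 0.061), without untreated db/db replicate 3 (0.41, adjusted p = 0.105) and with the GC correction (0.38, adjusted p = 0.101), and the groups overlapped. The falls were led by Ddit3, Sec61a1 and Pdia5. Ddit3 lay at 501, 452 and 503 CPM in the db/+ libraries and at 123.2, 154 and 153 CPM in the untreated db/db libraries (log2 fold change -1.76 ± 0.13, adjusted p = 2.96e-07). Ddit3 encodes CHOP, a factor of prolonged stress, and its groups were apart.

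Genes of mitochondrial ribosomes and of the proteasome fell more often than they rose. Of 78 mitochondrial ribosomal protein genes 42 fell and 9 rose, with a median of -0.34. Without db/+ replicate 1 17 rose and 35 fell, and with the GC correction 8 rose and 39 fell. Mrps26 lay at 66, 79 and 81.4 CPM in the db/+ libraries and at 22.7, 26.1 and 23.6 CPM in the untreated db/db libraries (log2 fold change -1.64 ± 0.10, adjusted p = 1.24e-07). Mrpl24 lay at 129.7, 146 and 152 CPM in the db/+ libraries and at 53.3, 57.5 and 57.2 CPM in the untreated db/db libraries (log2 fold change -1.35 ± 0.09, adjusted p = 1.93e-07). Both were apart by a wide gap. Of 84 cytosolic ribosomal protein genes 30 fell and 10 rose. These counts were 22 and 32 without db/+ replicate 1, 23 and 19 with upper-quartile scaling and 27 and 19 with the GC correction, so no direction is given for this list. Rpl36 lay at 365, 364 and 351 CPM in the db/+ libraries and at 176, 167 and 160.1 CPM in the untreated db/db libraries (log2 fold change -1.10 ± 0.09, adjusted p = 6.77e-07). Rps27l lay at 64.2, 41.9 and 42.8 CPM in the db/+ libraries and at 90.3, 100.9 and 95.2 CPM in the untreated db/db libraries (log2 fold change 0.94 ± 0.14, adjusted p = 0.000101). Rps27l is a paralogue induced by p53, and its groups did not overlap.

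Of 47 proteasome genes 25 fell and 5 rose, with a median of -0.32. Without db/+ replicate 1 11 rose and 22 fell, with the GC correction 2 and 27, and with upper-quartile scaling 8 and 24. The 3 subunits that fell most, Psmb8, Psmb10 and Psmb9, are those of the interferon-induced immunoproteasome, with -1.74, -1.68 and -1.57. The constitutive subunit Psmb5, which Psmb8 replaces, rose. Psmb5 lay at 40.8, 27.7 and 28.4 CPM in the db/+ libraries and at 45, 50.3 and 53 CPM in the untreated db/db libraries (log2 fold change 0.61 ± 0.14, adjusted p = 0.00171). Among 42 lysosomal genes 17 rose and 7 fell, or 4 fell with transcripts added up. Atp6v0b lay at 398, 436 and 379.9 CPM in the db/+ libraries and at 172, 192 and 184 CPM in the untreated db/db libraries (log2 fold change -1.15 ± 0.10, adjusted p = 1.04e-06). Atp6v0b is a subunit of the proton pump, while its accessory subunit Atp6ap1 and the protease cathepsin L (Ctsl), both named after their values were seen, rose by 1.22 and 1.45. Of 35 autophagy genes 12 rose and 14 fell. Map1lc3a lay at 103, 103 and 86.8 CPM in the db/+ libraries and at 24.3, 28.1 and 29.3 CPM in the untreated db/db libraries (log2 fold change -1.84 ± 0.10, adjusted p = 6.48e-08). Atg4c lay at 9.01, 8.97 and 9.33 CPM in the db/+ libraries and at 22.2, 26.1 and 24.1 CPM in the untreated db/db libraries (log2 fold change 1.41 ± 0.12, adjusted p = 6.71e-07). Map1lc3a is an LC3 protein of the autophagosome membrane and Atg4c an LC3 protease.

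Nutrient transport and lipid genes held several sharp single changes. Of 34 amino acid transporters 18 rose and 7 fell, with a median log2 fold change of 0.40; without db/+ replicate 3 or without the filter on low counts 4 fell. Slc7a11 lay at 5.64, 4.49 and 5.46 CPM in the db/+ libraries and at 22.9, 23.7 and 20.2 CPM in the untreated db/db libraries (log2 fold change 2.10 ± 0.13, adjusted p = 1.24e-07). Slc7a11 imports cystine for glutathione. Slc38a11 lay at 0.792, 1.73 and 1.39 CPM in the db/+ libraries and at 7.38, 10.1 and 6.9 CPM in the untreated db/db libraries (log2 fold change 2.64 ± 0.29, adjusted p = 6.55e-06). Slc38a6 lay at 24, 36.7 and 34.4 CPM in the db/+ libraries and at 10.6, 10.02 and 12.5 CPM in the untreated db/db libraries (log2 fold change -1.52 ± 0.16, adjusted p = 5.3e-06). The first pair rose and Slc38a6 fell, without overlap. Of 41 antioxidant genes 19 rose and 11 fell, but 7 fell without db/+ replicate 1, 7 without untreated db/db replicate 1 or without the filter on low counts and 6 with the GC correction. Prdx4 lay at 17.4, 15.4 and 15.1 CPM in the db/+ libraries and at 49, 57 and 61.4 CPM in the untreated db/db libraries (log2 fold change 1.80 ± 0.12, adjusted p = 1.3e-07). Prdx4 is the peroxiredoxin of the endoplasmic reticulum. Nqo1 lay at 12.8, 10.2 and 9.04 CPM in the db/+ libraries and at 1.9, 3.47 and 3.27 CPM in the untreated db/db libraries (log2 fold change -1.88 ± 0.27, adjusted p = 6.24e-05). Gpx4 lay at 212, 187 and 169 CPM in the db/+ libraries and at 94.8, 91.7 and 111 CPM in the untreated db/db libraries (log2 fold change -0.93 ± 0.11, adjusted p = 1.01e-05). Nqo1 is a quinone reductase and Gpx4 removes lipid peroxides, and both fell without overlap.

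Of 28 genes of fatty acid and triglyceride synthesis 9 rose and 9 fell, or 12 and 4 with the GC correction. Dgat2 lay at 3.76, 3.67 and 3.67 CPM in the db/+ libraries and at 20.9, 25.4 and 20.1 CPM in the untreated db/db libraries (log2 fold change 2.58 ± 0.15, adjusted p = 8.27e-08). Dgat2 closes triglyceride synthesis. Scd1 lay at 2.77, 2.04 and 1.69 CPM in the db/+ libraries and at 64.2, 6.49 and 6.41 CPM in the untreated db/db libraries (log2 fold change 3.56 ± 1.12, adjusted p = 0.03). Scd1, a fatty acid desaturase, stood mostly on untreated db/db replicate 1; without that library it was 1.58, adjusted p = 0.000705, and its call was lost when any db/+ library was left out (adjusted p from 0.069 to 0.089). Elovl6 lay at 73.1, 63.7 and 57.5 CPM in the db/+ libraries and at 36, 38.9 and 38.9 CPM in the untreated db/db libraries (log2 fold change -0.77 ± 0.10, adjusted p = 2.49e-05). Among 34 genes for the oxidation of fatty acids 11 rose and 9 fell. The isoforms of carnitine palmitoyltransferase 1, which admits fatty acids to mitochondria, went opposite ways. Cpt1a lay at 27.8, 28.3 and 24.6 CPM in the db/+ libraries and at 87.1, 99.5 and 92.2 CPM in the untreated db/db libraries (log2 fold change 1.79 ± 0.10, adjusted p = 7.49e-08). Cpt1b lay at 9.01, 11.2 and 13.6 CPM in the db/+ libraries and at 3.22, 3.09 and 2.49 CPM in the untreated db/db libraries (log2 fold change -1.94 ± 0.23, adjusted p = 1.3e-05). Cpt1c lay at 11.8, 15.2 and 18.9 CPM in the db/+ libraries and at 4.97, 7.62 and 4.56 CPM in the untreated db/db libraries (log2 fold change -1.41 ± 0.22, adjusted p = 0.000131). Cpt1a, the liver form, rose in every db/db library above every db/+ library, and the muscle and brain forms fell likewise.

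Activity-dependent, circadian and imprinted genes were called, in either direction, in shares near that of all genes, and single genes are described. Of 35 immediate early genes 10 rose and 10 fell. Npas4 lay at 230.2, 422 and 234 CPM in the db/+ libraries and at 10.6, 25.3 and 10.6 CPM in the untreated db/db libraries (log2 fold change -4.24 ± 0.44, adjusted p = 0.000128). Npas4 follows depolarisation and calcium entry. Jund lay at 788, 663 and 610.2 CPM in the db/+ libraries and at 130.2, 169 and 158 CPM in the untreated db/db libraries (log2 fold change -2.17 ± 0.13, adjusted p = 1.08e-07). Jund, an AP-1 protein, had -1.56, adjusted p = 6.14e-07 with the GC correction. Fos, Nr4a1 and Egr1, chosen after their values were seen, had -0.78, -0.74 and 0.46, and with the GC correction Fos (-0.45, adjusted p = 0.0728) and Nr4a1 (-0.40, adjusted p = 0.0737) were not called. Of 23 clock genes 10 fell and 5 rose; without db/+ replicate 1 8 rose and 9 fell. Per2 lay at 30.2, 36.6 and 46 CPM in the db/+ libraries and at 12.3, 16.1 and 17.2 CPM in the untreated db/db libraries (log2 fold change -1.30 ± 0.20, adjusted p = 0.000178). Dbp lay at 122.6, 122 and 112 CPM in the db/+ libraries and at 37.4, 46.6 and 67.2 CPM in the untreated db/db libraries (log2 fold change -1.24 ± 0.17, adjusted p = 9.03e-05). Per2 is a repressor of the clock and Dbp an output factor. Arntl lay at 1.48, 1.63 and 1.49 CPM in the db/+ libraries and at 5.56, 3.34 and 2.21 CPM in the untreated db/db libraries (log2 fold change 1.26 ± 0.34, adjusted p = 0.00618). Arntl, BMAL1, is the activator of the clock and rose while Per1, Per2, Per3 and Dbp fell. The time of day of islet collection is not stated in the labels.

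Of 32 imprinted genes 13 fell and 8 rose. Nnat lay at 61.7, 66.2 and 72 CPM in the db/+ libraries and at 3.65, 4.54 and 3.56 CPM in the untreated db/db libraries (log2 fold change -4.08 ± 0.18, adjusted p = 1.6e-08). Kcnq1ot1 lay at 147, 231 and 211 CPM in the db/+ libraries and at 17.3, 11.8 and 17.2 CPM in the untreated db/db libraries (log2 fold change -3.67 ± 0.27, adjusted p = 5.89e-06). Kcnq1ot1 is transcribed antisense to Kcnq1, which had -0.18 (adjusted p = 0.655); the labels do not state the strand setting of the counting, so this pair is uncertain. From the Dlk1-Meg3 cluster, Meg3, Mirg, Rtl1 and Rian fell, with log2 fold changes of -2.81, -2.76, -2.89 and -0.55, while Dlk1 had 0.11 (adjusted p = 0.793). Several of these were named after their values were seen. Igf2r lay at 78.3, 66.2 and 68 CPM in the db/+ libraries and at 119.8, 144 and 135 CPM in the untreated db/db libraries (log2 fold change 0.91 ± 0.10, adjusted p = 7.7e-06). Igf2r, which clears IGF2, rose without overlap.

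Of 44 cell cycle and replication genes 16 rose and 8 fell, and without untreated db/db replicate 1 11 rose and 8 fell. Ccnd2 lay at 1580.3, 1498 and 1214 CPM in the db/+ libraries and at 365, 434 and 410.2 CPM in the untreated db/db libraries (log2 fold change -1.83 ± 0.14, adjusted p = 4.07e-07). Ccnd2 is the main D-type cyclin of mouse beta cells. E2f2 lay at 2.47, 2.96 and 2.88 CPM in the db/+ libraries and at 11.4, 10.8 and 10.9 CPM in the untreated db/db libraries (log2 fold change 1.99 ± 0.21, adjusted p = 4.56e-06). Rrm2 lay at 1.48, 1.73 and 0.695 CPM in the db/+ libraries and at 6.58, 5.42 and 4.27 CPM in the untreated db/db libraries (log2 fold change 2.05 ± 0.31, adjusted p = 9.2e-05). E2f2 and Rrm2 act at the start of DNA synthesis and rose without overlap, while the division marker Mki67, named after its value was seen, had 0.74 (adjusted p = 0.0939) and was highest in untreated db/db replicate 1. It was called without untreated db/db replicate 2 (0.97, adjusted p = 0.0362) or 3 (0.98, adjusted p = 0.0272). Among 43 genes of AMPK, mTOR and insulin signalling 18 rose and 14 fell. Rps6kb2 lay at 77.1, 107 and 115 CPM in the db/+ libraries and at 22.4, 25 and 21.5 CPM in the untreated db/db libraries (log2 fold change -2.12 ± 0.19, adjusted p = 4.83e-06). Prkab2 lay at 56.4, 60.5 and 60.7 CPM in the db/+ libraries and at 20.1, 21.8 and 20.7 CPM in the untreated db/db libraries (log2 fold change -1.502 ± 0.09, adjusted p = 1.03e-07). Sesn3 lay at 6.24, 4.38 and 6.26 CPM in the db/+ libraries and at 21.8, 23.3 and 22.1 CPM in the untreated db/db libraries (log2 fold change 1.99 ± 0.16, adjusted p = 5.6e-07). Rps6kb2 is an S6 kinase, Prkab2 a regulatory subunit of AMPK and Sesn3 a sestrin. The insulin receptor substrate Irs2 and the AMPK catalytic subunit Prkaa2, both named after their values were seen, rose by 1.73 and 1.77.

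Wnt pathway genes rose more often than they fell. Of 31 tested 19 rose and 4 fell, with a median log2 fold change of 0.75. Wnt4 lay at 567, 562 and 581 CPM in the db/+ libraries and at 197, 242 and 265 CPM in the untreated db/db libraries (log2 fold change -1.28 ± 0.12, adjusted p = 1.74e-06). Wnt4 is a Wnt ligand of mature beta cells. Sfrp5 lay at 35.2, 27.9 and 31.2 CPM in the db/+ libraries and at 7.82, 6.24 and 5.77 CPM in the untreated db/db libraries (log2 fold change -2.25 ± 0.29, adjusted p = 8.65e-05). Sfrp5 is a secreted antagonist. Tcf7 lay at 0.594, 0.306 and 0.199 CPM in the db/+ libraries and at 36.4, 8.44 and 5.55 CPM in the untreated db/db libraries (log2 fold change 5.48 ± 1.15, adjusted p = 0.00493). Tcf7 and Lef1, Wnt-responsive factors that T cells also express, were both highest in untreated db/db replicate 1. Without that library Tcf7 had 4.23, adjusted p = 0.000195, and without db/+ replicate 1 6.11, adjusted p = 0.0179. The feedback target Axin2, the antagonist Sfrp1 and the receptors Fzd1 and Lrp5, chosen after their values were seen, rose by 1.27, 2.53, 1.896 and 1.21. Axin2 lay at 2.38, 2.85 and 3.08 CPM in the db/+ libraries and at 5.56, 7.56 and 6.98 CPM in the untreated db/db libraries, so here untreated db/db replicate 1 was the lowest of its group. Of 44 TGF-beta, BMP and activin genes 21 rose and 9 fell. Bambi lay at 18, 15.7 and 13.9 CPM in the db/+ libraries and at 58.9, 80.7 and 65.4 CPM in the untreated db/db libraries (log2 fold change 2.11 ± 0.17, adjusted p = 1.23e-06). Bambi is a decoy receptor. Acvrl1 lay at 72.7, 84.6 and 58.5 CPM in the db/+ libraries and at 18, 21.7 and 22.7 CPM in the untreated db/db libraries (log2 fold change -1.79 ± 0.16, adjusted p = 1.44e-06). Acvrl1 is a receptor of endothelial cells.

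Retinoid genes rose more often than they fell. Of 22 tested 12 rose and 6 fell, or 11 and 2 with the GC correction. Aldh1a3 lay at 1.68, 1.12 and 0.298 CPM in the db/+ libraries and at 175, 179 and 164 CPM in the untreated db/db libraries (log2 fold change 7.37 ± 0.27, adjusted p = 9.63e-09). Aldh1a3 makes retinoic acid from retinal. Without db/+ replicate 1 it had 8.004, adjusted p = 9.34e-08. Cyp26b1 lay at 3.86, 2.24 and 2.18 CPM in the db/+ libraries and at 67.6, 54.6 and 135 CPM in the untreated db/db libraries (log2 fold change 4.95 ± 0.47, adjusted p = 6.76e-05). Cyp26b1 breaks retinoic acid down. Rxrb lay at 63.9, 67.2 and 70.2 CPM in the db/+ libraries and at 25.8, 25.3 and 25.6 CPM in the untreated db/db libraries (log2 fold change -1.39 ± 0.09, adjusted p = 1.26e-07). Aldh1a3 and Cyp26b1 thus rose and the receptor subunit Rxrb fell, each without overlap. Of 64 listed genes of the serpin family of protease inhibitors, 44 were too low to be tested. Among the 20 tested 12 rose and 1 fell. Members as low in db/+ as Serpina1e (3 counts there, 437 in untreated db/db) passed the filter on low counts only through db/db libraries. Hardly any call but a rise was open to them, so this count does not measure how widely serpins rose. Serpina7 lay at 7.32, 5.2 and 1.99 CPM in the db/+ libraries and at 159, 250.2 and 183 CPM in the untreated db/db libraries (log2 fold change 5.35 ± 0.37, adjusted p = 4.93e-06). Serpina7 carries thyroxine. C1qtnf1 lay at 9.7, 8.26 and 6.16 CPM in the db/+ libraries and at 154, 217 and 227 CPM in the untreated db/db libraries (log2 fold change 4.63 ± 0.21, adjusted p = 3.45e-08). C1qtnf1, from the complement-related list, is a secreted C1q-like protein.

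Cell contact genes also changed. Of 37 junction genes 18 rose and 8 fell, or 3 fell with the GC correction, 5 without db/+ replicate 1, and 4 without untreated db/db replicate 1, with upper-quartile scaling, without the filter, with transcripts added up or in a fit of the 6 untreated libraries alone. Cldn2 lay at 0.594, 0.306 and 1.59 CPM in the db/+ libraries and at 15.3, 18.4 and 22.9 CPM in the untreated db/db libraries (log2 fold change 4.49 ± 0.35, adjusted p = 1.65e-06). Cldn2 forms cation pores in tight junctions. Without db/+ replicate 3 Cldn2 had 5.39, adjusted p = 9.44e-07. Cdh22 lay at 43.5, 43.6 and 45.1 CPM in the db/+ libraries and at 12.6, 14 and 10.2 CPM in the untreated db/db libraries (log2 fold change -1.84 ± 0.12, adjusted p = 1.26e-07). E-cadherin (Cdh1) and beta-catenin (Ctnnb1), named after their values were seen, rose by 0.69 and 0.94. Genes of matrix glycoproteins, proteoglycans and proteases rose in 30 of 51 and fell in 6, with a median log2 fold change of 1.05. Fn1 lay at 0.792, 1.63 and 0.794 CPM in the db/+ libraries and at 31.1, 21.1 and 35.9 CPM in the untreated db/db libraries (log2 fold change 4.77 ± 0.33, adjusted p = 7.39e-07). Fn1 is fibronectin. Nid2 lay at 18.6, 17.7 and 14.4 CPM in the db/+ libraries and at 4.46, 2.96 and 7.26 CPM in the untreated db/db libraries (log2 fold change -1.79 ± 0.32, adjusted p = 0.000696). Hspg2 lay at 104, 109 and 122 CPM in the db/+ libraries and at 43.9, 34.4 and 63.9 CPM in the untreated db/db libraries (log2 fold change -1.23 ± 0.19, adjusted p = 0.000248). Nid2 and Hspg2, nidogen and perlecan, belong to basement membranes, and both fell. Of 33 collagens 15 rose and 5 fell. Col1a1 lay at 0.594, 2.55 and 6.65 CPM in the db/+ libraries and at 36.5, 18 and 77.2 CPM in the untreated db/db libraries (log2 fold change 3.74 ± 0.96, adjusted p = 0.0138). The groups were apart, with db/+ replicate 3 above its own group. Without that library Col1a1 had 4.85, adjusted p = 0.0197, and without untreated db/db replicate 3 3.06, adjusted p = 0.0361.

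**Figure D4:**
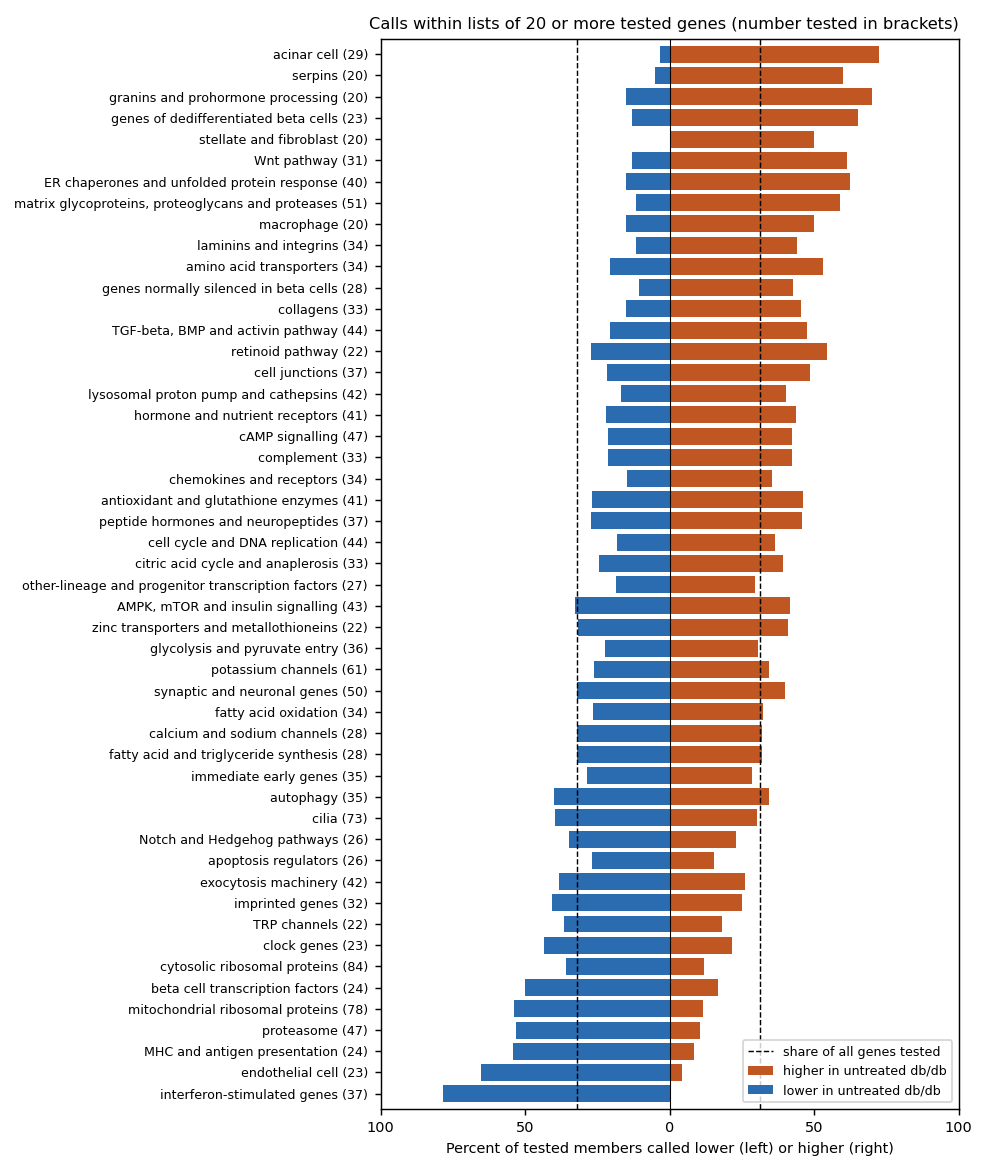
Percent of the tested members of each list called lower (left) or higher (right) in untreated db/db islets, for lists of 20 or more tested genes, with the number tested in brackets. Dashed lines mark the shares over all genes tested, 32.0% lower and 31.3% higher. Interferon-stimulated genes have the longest bar on the left and acinar genes the longest on the right in the edgeR fit, but 7 of 29 acinar genes were called higher with limma voom. Acinar genes that were very low in db/+ passed the filter on low counts only through db/db libraries, so their bar does not measure how widely they rose.

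Markers of islet endocrine cells were present in every library. The summed level of 6 beta cell markers, most of it insulin, lay at 447793, 339630.3 and 246938 CPM in the db/+ libraries and at 153352, 226137 and 235492 CPM in the db/db libraries. The sum of 5 alpha cell markers lay at 13448, 14907 and 19768 against 20865, 20410.4 and 16029 CPM, so these groups overlapped. Delta cell markers summed to 4525, 5493 and 6903 against 3030.0, 3835 and 2724 CPM and did not overlap. Most of this sum is Sst, whose call was lost with the GC correction and without db/+ replicate 3. Of 14 delta, PP and epsilon cell genes 4 rose and 4 fell, or 6 and 1 with the GC correction. Of 15 alpha cell genes 5 rose and 1 fell. Dpp4 lay at 24.7, 21.1 and 20.1 CPM in the db/+ libraries and at 83, 91.1 and 82.1 CPM in the untreated db/db libraries (log2 fold change 1.96 ± 0.12, adjusted p = 1.26e-07). Dpp4 is the protease that inactivates incretins. Slc38a5 lay at 7.52, 9.68 and 9.73 CPM in the db/+ libraries and at 29.8, 28.3 and 21 CPM in the untreated db/db libraries (log2 fold change 1.55 ± 0.17, adjusted p = 6.05e-06). Slc38a5 is the glutamine transporter induced in dividing alpha cells.

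Transcripts of non-endocrine cells differed between the groups. Of 23 endothelial genes 15 fell and 1 rose. Robo4 lay at 77, 91.1 and 94.9 CPM in the db/+ libraries and at 21.3, 19.4 and 29.9 CPM in the untreated db/db libraries (log2 fold change -1.898 ± 0.16, adjusted p = 1.4e-06). Egfl7 lay at 69.6, 77.2 and 68.6 CPM in the db/+ libraries and at 19.9, 19 and 26.7 CPM in the untreated db/db libraries (log2 fold change -1.72 ± 0.14, adjusted p = 6.7e-07). Both are endothelial, and their groups were apart. Vwf lay at 1.09, 1.63 and 0.993 CPM in the db/+ libraries and at 9.58, 4.91 and 12 CPM in the untreated db/db libraries (log2 fold change 2.82 ± 0.45, adjusted p = 0.000246). Vwf, the carrier of clotting factor VIII, was the only member called higher, and 7 of the 23 were not called in either direction. Endothelial markers summed to 417 to 474 CPM in the db/+ and 289 to 382 CPM in the db/db libraries. Of 20 macrophage genes 10 rose and 3 fell, or 9 and 1 with the GC correction. Gpnmb lay at 0.198, 0.204 and 0.199 CPM in the db/+ libraries and at 8.04, 7.88 and 6.41 CPM in the untreated db/db libraries (log2 fold change 5.15 ± 0.31, adjusted p = 9.82e-08). Lyz2 lay at 12.1, 12.5 and 10.9 CPM in the db/+ libraries and at 77.2, 35.3 and 41.7 CPM in the untreated db/db libraries (log2 fold change 2.12 ± 0.28, adjusted p = 0.000184). Fcer1g lay at 12.2, 15.2 and 13.2 CPM in the db/+ libraries and at 8.99, 6.93 and 7.47 CPM in the untreated db/db libraries (log2 fold change -0.80 ± 0.21, adjusted p = 0.00464). Gpnmb and Lyz2 rose while other macrophage genes such as Fcer1g fell, and the 5 markers summed to 100.4 to 104 against 141 to 178 CPM.

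Lymphocyte and acinar transcripts were carried unevenly by the db/db libraries. The 5 T cell markers summed to 0 to 0.298 CPM in the db/+ libraries, where Cd3d, Cd3g and Cd8a held no count, and to 47.4, 12.5 and 8.19 CPM in the db/db libraries. B cell markers summed to 8.56 to 13.3 CPM against 162, 15 and 10.6 CPM, with Ms4a1 at 0 in all db/+ libraries. Markers of high endothelial venules and lymph node stroma summed to 0.198 to 0.894 against 539, 483 and 215 CPM, so they were high in all db/db libraries while B cell markers were high in a single one. Of 18 T and NK cell genes 16 rose, or 17 without untreated db/db replicate 1. Of 13 B cell genes 10 rose, but 5, 5 and 4 rose without db/+ replicate 1, 2 and 3. Without untreated db/db replicate 1, 11 rose and 1 fell. With DESeq2 6 rose, with limma voom 4 and in a fit of the 6 untreated libraries alone 4. In db/+ the mean log2 level of the T and NK list was -1.67, -1.74 and -1.65, and of the B cell list -1.36, -1.28 and -1.3. Members that low passed the filter on low counts only through db/db libraries, so hardly any call but a rise was open to them. Of 25 listed T and NK genes 7 were too low to be tested, and of 15 B cell genes 2. These counts therefore do not measure how widely such genes rose. Acinar markers summed to 13.6, 5.81 and 80.6 CPM in the db/+ and 1564, 184 and 907 CPM in the db/db libraries. Of 29 acinar genes 21 rose and 1 fell, but 12 rose without untreated db/db replicate 1, 11 without db/+ replicate 1 and 10 without db/+ replicate 2. Fewer still rose with limma voom (7) and in a fit of the 6 untreated libraries alone (8 of 27 tested). The mean log2 level of the acinar list was -0.11, -0.85 and 2.0 in db/+. Members as low there as Cpb1 (3, 0 and 27 counts) also passed the filter only through db/db libraries. Hardly any call but a rise was open to them, so the acinar count does not measure how widely such genes rose either. Stellate and fibroblast markers summed to 25.2 to 42.6 against 136, 77.1 and 220.4 CPM, beside the rise of matrix genes. The part of these cells in that rise and in the rises of cell cycle and Wnt genes was not tested. Schwann cell markers summed to 15.8 to 21.2 against 11.8 to 12.4 CPM, and red cell markers to 19.8 to 25.1 against 6.21 to 31.0 CPM.

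**Figure D5:**
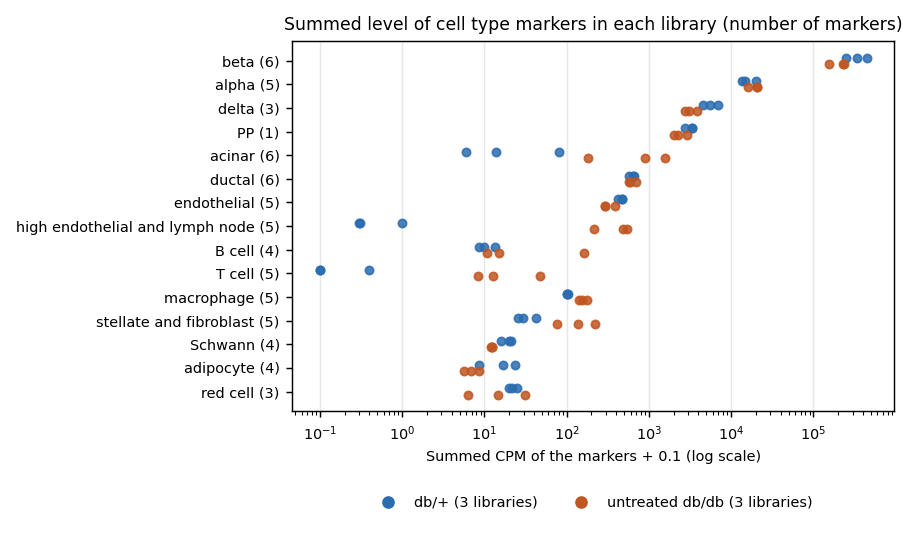
Summed CPM of fixed marker genes of each cell type, plus 0.1, on a log scale, with a point for each library and the number of markers in brackets. T cell markers reach 47.4 CPM in untreated db/db replicate 1 and at most 0.298 CPM in the db/+ libraries, and acinar markers are at 184 CPM or more in each db/db library and at 80.6 CPM or less in each db/+ library.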

How the data were processed

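RNA was purified on columns and made into directional libraries, per the labels' protocols. The submitters' processing notes name cutadapt 1.9.1, HISAT2 2.2.1, featureCounts 2.0.0 and the GRCm39 build. The deposited table holds raw counts, per the file headers, for 139023 RefSeq transcripts in 9 libraries. The strand setting and the handling of reads that match several transcripts or genes are unknown here, so levels of genes with several transcripts can be understated.

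Each of 46316 gene symbols was represented by its transcript with most counts in all 9 libraries together. Counts were fitted with edgeR 4.0.16 (filterByExpr, TMM scaling, quasi-likelihood test) in R 4.3.3 on all 9 libraries, with a coefficient for each group. Every adjusted p is from this fit after Benjamini-Hochberg adjustment over the 16761 genes tested, unless another tool is named, and a call means an adjusted p under 0.05. CPM were computed with TMM-scaled library sizes, a ± beside a log2 fold change is a standard error, and n is 3 libraries in each group. Fold changes compare untreated db/db with db/+. No fold is given for genes with 3 counts or fewer in a group. The procedure was tested on simulated counts in which only a small set of genes changed, up and down alike. In these data most genes were called, so that test cannot show how well the scaling works here.

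Alternatives were DESeq2 1.42.0, limma 3.58.1 with voom, other scaling, no filter, transcripts added up, the 6 untreated libraries alone, a replicate block and each library left out. An offset for GC content, with 92.7% of tested genes matched to a value, was chosen after the data were seen. The members and the gene lists were chosen with earlier results of these data known. Genes were named as the 10 highest and 10 lowest folds with groups apart and 10 CPM or more in the higher group, the 8 largest rises and falls in CPM, the 3 highest and 3 lowest called members of each list, and any member of a list of 25 genes or fewer. Immunoglobulin and T cell receptor segments and predicted genes were left out of the first rules, and some genes that the rules name are not reported here. Promoters came from RefSeq (GRCm38.p6). Between libraries of a group at most 1.08% of 8897 genes, those with over 100 counts in every library, held exactly equal counts, so no library was counted as a copy.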

Additional observations from a re-analysis of the deposited data

How the results depend on the processing

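Over 15 alternatives the number of genes called stayed within 1.5 times of 10599, from 9464 with the GC offset, chosen after seeing the data, to 11062 without the filter on low counts. Leaving out each library in turn gave 9614 to 10775 calls, with 4742 to 5871 higher and 4835 to 5232 lower. Of the calls, 48.19% to 55.98% were higher. The all-gene median of log2 fold changes, 0.02, moved to 0.13 with upper-quartile scaling, 0.15 without the filter and 0.12 without db/+ replicate 1 or with transcripts added up, so counts of rises and falls shift with it. Same-numbered libraries did not deviate together (r = -0.157, 0.034 and 0.026 for replicates 1, 2 and 3), so the numbers do not pair them; with the replicate block 10048 genes were called. The block ended the calls of Prss3, Vip, Npy and Calr (adjusted p = 0.0911, 0.0605, 0.0884 and 0.0644) and took the acinar genes that rose from 21 to 9. Of 1838 list members and named genes, 1151 kept their call, or its absence, in every alternative. Of the 36 genes named for fold or level, 33 to 36 stayed called when a library was left out. Fitted on the 6 untreated libraries alone, Ms4a1, Scd1, Prss3, Calr, Npy and Pou2af1 lost their calls (adjusted p = 0.177, 0.0821, 0.0829, 0.0757, 0.0573 and 0.056), and with limma voom Vip and Scd1 did (0.113 and 0.102). With the GC correction Syvn1 was called higher (0.21, adjusted p = 0.0354). Counts of calls among B cell and acinar genes moved by over 1.5 times under several alternatives, and the cause was not tested. With 3 libraries a group, a gene not called cannot be taken as equal.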
